A study of Mus musculus with 9 samples.

Results

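The aminoacyl-tRNA synthetases are the enzymes that attach each amino acid to its transfer RNA. The members were taken by gene symbol: the single-letter amino acid code plus ars, with Eprs, Farsa and Farsb, as cytosolic, and forms such as Iars2 as mitochondrial. Subunits were counted separately. Genes with other symbols, among them Tarsl2, were left out whether or not their product charges a tRNA. This gave 35 of the 18193 genes named on the array, 19 cytosolic and 16 mitochondrial. Messenger RNA was measured on 9 single-colour microarrays of mouse T-cell lymphomas. All tumours were late-generation (G3) Atm-/- and carried TERT-ER, a telomerase reverse transcriptase whose activity depends on 4-hydroxytamoxifen (4-OHT), and all were grown in SCID mice, which lack B and T cells of their own. The ALT group (alternative lengthening of telomeres, a recombination-based way of keeping telomeres) comprised 5 passage 4 tumours on vehicle, the telomerase group 3 passage 4 tumours on 4-OHT, and 1 parental tumour is labelled telomerase with no passage given. Every comparison is ALT against telomerase at passage 4, the contrast that the labels set up, and the drug, the telomerase state and the telomere mechanism cannot be told apart in it. The labels do not say whether the tumours of a group began in separate animals or lines, so each p-value reflects the spread among these arrays and no more.

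A synthetase recognises its amino acid and its tRNA and joins them at the cost of ATP, and a shortage of charged tRNA stalls the ribosome. Cytosolic synthetases serve the translation of nuclear messages, and several of them sit with 3 scaffold proteins in the multisynthetase complex. Mitochondrial synthetases are encoded in the nucleus, imported, and serve the few proteins made inside the organelle. Gars and Kars code for both compartments and are placed here with the cytosolic enzymes. When charged tRNA runs short, the kinase Gcn2 (Eif2ak4) slows general translation and favours the transcription factor Atf4. Atf4 activates genes of amino acid synthesis, amino acid uptake and many cytosolic synthetases through amino acid response elements.

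The core of that element, TGATGNAA, was searched on both strands of RefSeq promoter windows of the mouse assembly GRCm38.p6, each covering 250 bases before and 50 after the transcript start. No other motif was searched. A window was matched for 26 of the 35 synthetase genes, 12 cytosolic and 14 mitochondrial. Cars, Lars and Hars2, which are among the called genes described below, had no window and were not searched. The core occurred in 5 of the 12 cytosolic genes with a window (41.7%) and in 0 of the 14 mitochondrial genes, against 1304 of all 32851 windows (3.97%) and 281 of 9957 tested genes with a window (2.82%). A match from each of the 5 genes, 30 bases long with the core in capitals, is shown because it marks the synthetase genes that share these letters near their start. The matches are read 5′ to 3′ along the strand on which the core reads TGATGNAA.
Aars, chr8:111033840-111033869, minus strand: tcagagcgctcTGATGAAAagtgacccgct
Gars, chr6:55037960-55037989, minus strand: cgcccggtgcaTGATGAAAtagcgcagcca
Iars, chr13:49682126-49682155, minus strand: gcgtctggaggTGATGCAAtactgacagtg
Tars, chr15:11399655-11399684, plus strand: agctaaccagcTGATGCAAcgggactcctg
Yars, chr4:129189895-129189924, plus strand: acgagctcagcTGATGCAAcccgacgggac

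The whole windows of 3 synthetases are given next. Iars and Yars are the called genes that hold the core, among called genes with a window. Fars2 had the second largest change of all members. All 3 genes lie on the plus strand, the windows are read along the gene, and capitals mark the core on either strand.
Iars, chr13:49681880-49682179: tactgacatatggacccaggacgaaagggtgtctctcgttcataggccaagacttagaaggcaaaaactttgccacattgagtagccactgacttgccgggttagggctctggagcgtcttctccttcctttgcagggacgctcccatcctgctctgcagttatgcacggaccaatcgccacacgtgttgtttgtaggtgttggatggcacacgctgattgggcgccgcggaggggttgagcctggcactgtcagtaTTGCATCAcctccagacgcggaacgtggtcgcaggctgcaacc
Yars, chr4:129189653-129189952: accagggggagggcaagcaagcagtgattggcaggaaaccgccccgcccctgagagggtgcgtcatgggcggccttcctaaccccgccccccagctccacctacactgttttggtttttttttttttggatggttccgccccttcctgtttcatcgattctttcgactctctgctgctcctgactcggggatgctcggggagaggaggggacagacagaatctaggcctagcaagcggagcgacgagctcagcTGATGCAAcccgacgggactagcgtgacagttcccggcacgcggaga
Fars2, chr13:36117393-36117692: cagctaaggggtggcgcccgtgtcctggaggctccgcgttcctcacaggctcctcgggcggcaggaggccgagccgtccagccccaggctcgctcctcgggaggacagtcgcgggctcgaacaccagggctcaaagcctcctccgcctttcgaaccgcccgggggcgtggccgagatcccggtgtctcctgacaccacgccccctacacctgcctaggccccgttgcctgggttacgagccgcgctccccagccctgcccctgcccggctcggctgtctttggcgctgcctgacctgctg
In Iars, Yars and Aars the core printed above begins at transcript bases 8, 4 and 10, just inside the transcript. In Tars and Gars it lies 15 and 30 bases before the start. In Fars2 the 8 letters are not in this window.

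The arrays carried traces of other tissues. The summed signal of 13 measured pancreatic acinar genes, which code for digestive enzymes, was 93149, 148234 and 196377 in ALT 1, 2 and 5 and 125387 in telomerase 3. In the other arrays it was 1000 in ALT 3, 587 in ALT 4, 408 in telomerase 1, 327 in telomerase 2 and 305 in the parental tumour. The sum of 12 skeletal muscle genes was 9995 in telomerase 1, 668 in telomerase 2, 14959 in the parental tumour and 260 to 350 elsewhere. The 9 measured T-cell genes summed to 26229 to 32717 in ALT tumours and 34450 to 37232 in telomerase tumours, so the labelled cell type was present on every array. Summed macrophage signals were 3517 to 6843 in ALT tumours and 3076 to 5081 in telomerase tumours, and those of B-cell genes were 443 to 618 and 412 to 507. The part of these tissues in the synthetase values was not tested, apart from values given for the 4 arrays of low acinar signal alone (ALT 3 and 4, telomerase 1 and 2) and for a fit with the acinar level as a covariate. In that fit 8 of the 10 called synthetases described below kept their calls and Yars and Sars did not (limma adjusted p = 0.063 and 0.0808).

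Cytosolic synthetases were more often lower than higher in ALT tumours, and mitochondrial synthetases were called in few cases and in both directions. Among the 19 cytosolic genes, 6 were called lower (Iars, Lars, Eprs, Cars, Yars and Sars) and 1 higher (Kars). Among the 16 mitochondrial genes, 2 were called lower (Fars2 and Iars2) and 1 higher (Hars2). A call is an adjusted p under 0.05 in a limma fit to log2 signals of all 12368 genes above the filter on dim probe sets, with Benjamini-Hochberg adjustment over all of them, and all 35 synthetases passed that filter. Over all tested genes 17.5% were called, 10.1% lower and 7.48% higher, so the 36.8% called among cytosolic synthetases lay above that background and the 18.8% among mitochondrial ones lay beside it. The lean of all tested genes toward lower calls depended on scaling, with 1244 lower and 925 higher here but 1048 lower and 1126 higher after quantile normalisation, which called 4 cytosolic synthetases lower. The count of 6 became 3 without telomerase 1 and also without telomerase 2. In whole tumours, fewer cells of a type and less RNA per cell cannot be told apart.

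**Figure D1:**
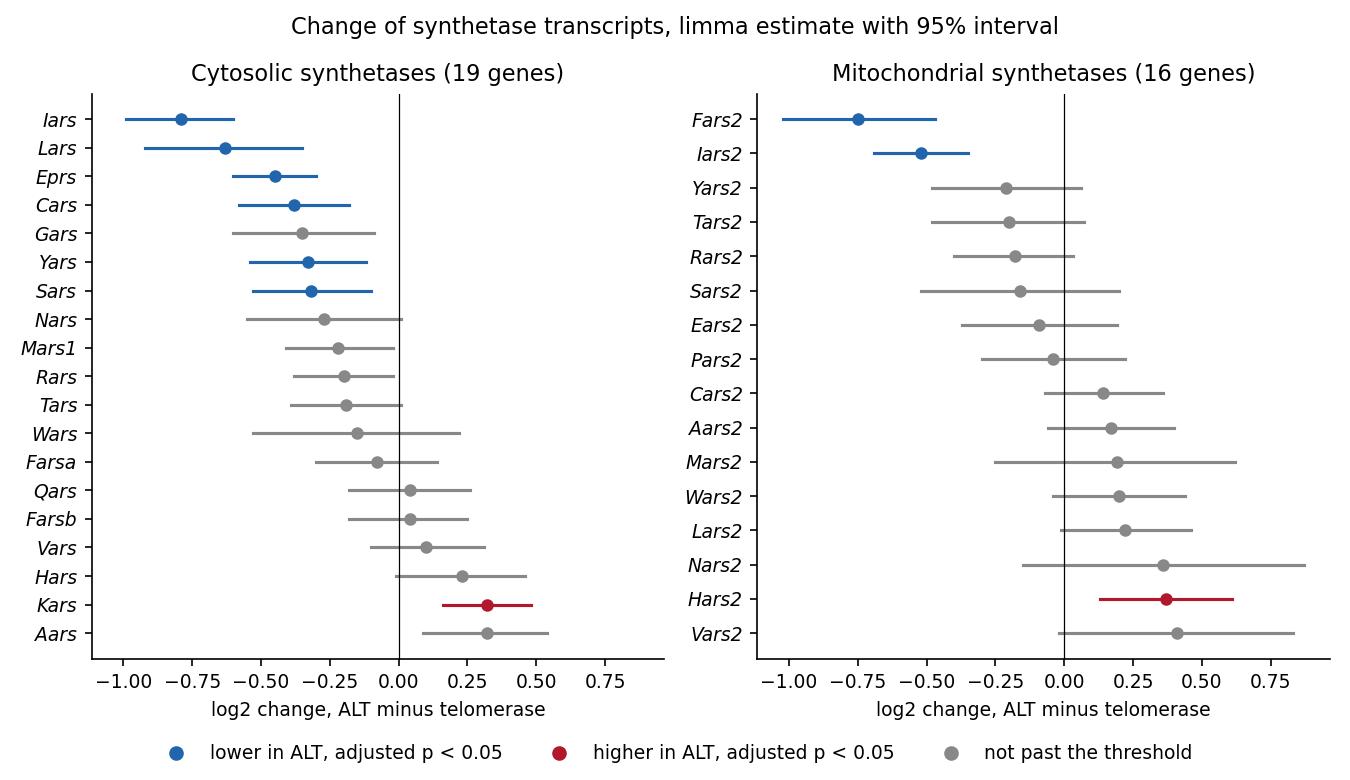
Log2 change of each synthetase, ALT minus telomerase (horizontal axis), with its 95% interval, for 19 cytosolic and 16 mitochondrial genes (5 ALT and 3 telomerase arrays). Iars, at -0.79, is the lowest, and 13 of 19 cytosolic genes lie below 0 against 8 of 16 mitochondrial genes.

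The median log2 change was -0.20 over the cytosolic genes, 0.05 over the mitochondrial genes and -0.01 over all tested genes. The cytosolic changes ran between -0.79 and 0.32. Averaged over the 19 cytosolic genes, the ALT arrays lay -0.25, -0.17, -0.13, -0.21 and -0.11 from the mean of the telomerase arrays on the log2 scale. The telomerase arrays lay 0.02, 0.02 and -0.04 from it and the parental tumour -0.01. Every ALT array was therefore below every telomerase array in this average. The upper quartile of all signals was also lower in every ALT array, at 193.7 to 201.0 in ALT tumours and 204.5 to 210.4 in telomerase tumours, and after quantile normalisation the cytosolic median was -0.17. Over the 16 mitochondrial genes the same differences were -0.02, 0.07, -0.03, 0.06 and -0.11 in ALT arrays and 0.03, 0.00 and -0.03 in telomerase arrays, and the groups overlapped.

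Iars, the cytosolic isoleucyl-tRNA synthetase (chr13:49682130-49734267), showed the largest change. Its signal was 820, 852, 854, 770 and 931 in ALT 1 to 5, against 1459, 1373 and 1594 in telomerase 1 to 3, and 1451 in the parental tumour. The groups were far apart, with the highest ALT array below the lowest telomerase array. The means were 845 ± 58.6 in ALT tumours and 1475 ± 111 in telomerase tumours (SD, n = 5 and 3), so ALT tumours held 57.3% of the telomerase signal. The log2 change was -0.79 (SE 0.087, limma adjusted p = 0.000384), and a second probe set of the gene gave -0.95. Iars was the only called synthetase that kept its call in all 20 other settings tried. In the 4 arrays of low acinar signal the change was again -0.79 (limma adjusted p = 0.0161).

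Lars, which charges leucine tRNA in the cytosol (chr18:42202298-42262237), came next among the cytosolic genes. Its signal was 549, 709, 611, 666 and 573 in ALT 1 to 5, against 1145, 987 and 805 in telomerase 1 to 3, and 971 in the parental tumour. The groups did not overlap, although the telomerase arrays were widely spread. The means were 622 ± 65.9 in ALT tumours and 979 ± 170 in telomerase tumours (SD, n = 5 and 3). The log2 change was -0.63 (SE 0.128, limma adjusted p = 0.00862), and it was -0.72 in the 4 low-acinar arrays (limma adjusted p = 0.0291).

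Eprs codes for a bifunctional enzyme that charges both glutamate and proline tRNAs (chr1:185361417-185428360). Its signal was 2288, 2163, 2291, 2228 and 2329 in ALT 1 to 5, against 2869, 3083 and 3351 in telomerase 1 to 3, and 2900 in the parental tumour. The 5 ALT arrays were close to each other and all lay below the telomerase arrays. The means were 2260 ± 64.9 in ALT tumours and 3101 ± 242 in telomerase tumours (SD, n = 5 and 3), with a log2 change of -0.45 (SE 0.0675, limma adjusted p = 0.0018). All 4 probe sets of Eprs were below 0, and 3 of them were called lower. In the low-acinar arrays the change was -0.39, with a limma adjusted p of 0.0627.

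Cars, Yars and Sars, which charge cysteine, tyrosine and serine tRNAs, had smaller decreases. Cars (chr7:143557230-143600090) had signals of 141, 135, 150, 138 and 145 in ALT 1 to 5, against 197, 186 and 184 in telomerase 1 to 3. Yars (chr4:129189734-129219240) had 489, 572, 546, 529 and 620 in ALT 1 to 5, against 665, 725 and 690 in telomerase 1 to 3. Sars (chr3:108424864-108445259) had 834, 811, 981, 907 and 898 in ALT 1 to 5, against 1052, 1032 and 1249 in telomerase 1 to 3. None of the 3 genes overlapped between groups. ALT tumours held 74.9% of the telomerase signal for Cars (log2 change -0.38, limma adjusted p = 0.0183), 79.5% for Yars (-0.33, limma adjusted p = 0.0405) and 79.8% for Sars (-0.32, limma adjusted p = 0.0475).

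Each of these 3 calls was lost when certain single arrays were left out, although the changes kept their direction. Cars lost its call without telomerase 1 (limma adjusted p = 0.089) or telomerase 2 (0.0548), and Yars without any array but ALT 5, with limma adjusted p between 0.0596 without ALT 2 and 0.137 without telomerase 2. Sars kept its call only without ALT 3, and otherwise had limma adjusted p between 0.0651 without ALT 4 and 0.169 without telomerase 3. In the 4 low-acinar arrays the log2 changes were -0.37 for Cars, -0.36 for Yars and -0.14 for Sars, none of them called. A second probe set of Sars was called lower as well (-0.39). Averaging the probe sets of Cars, of which the second is dim, brought its log2 change to -0.03.

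**Figure D2:**
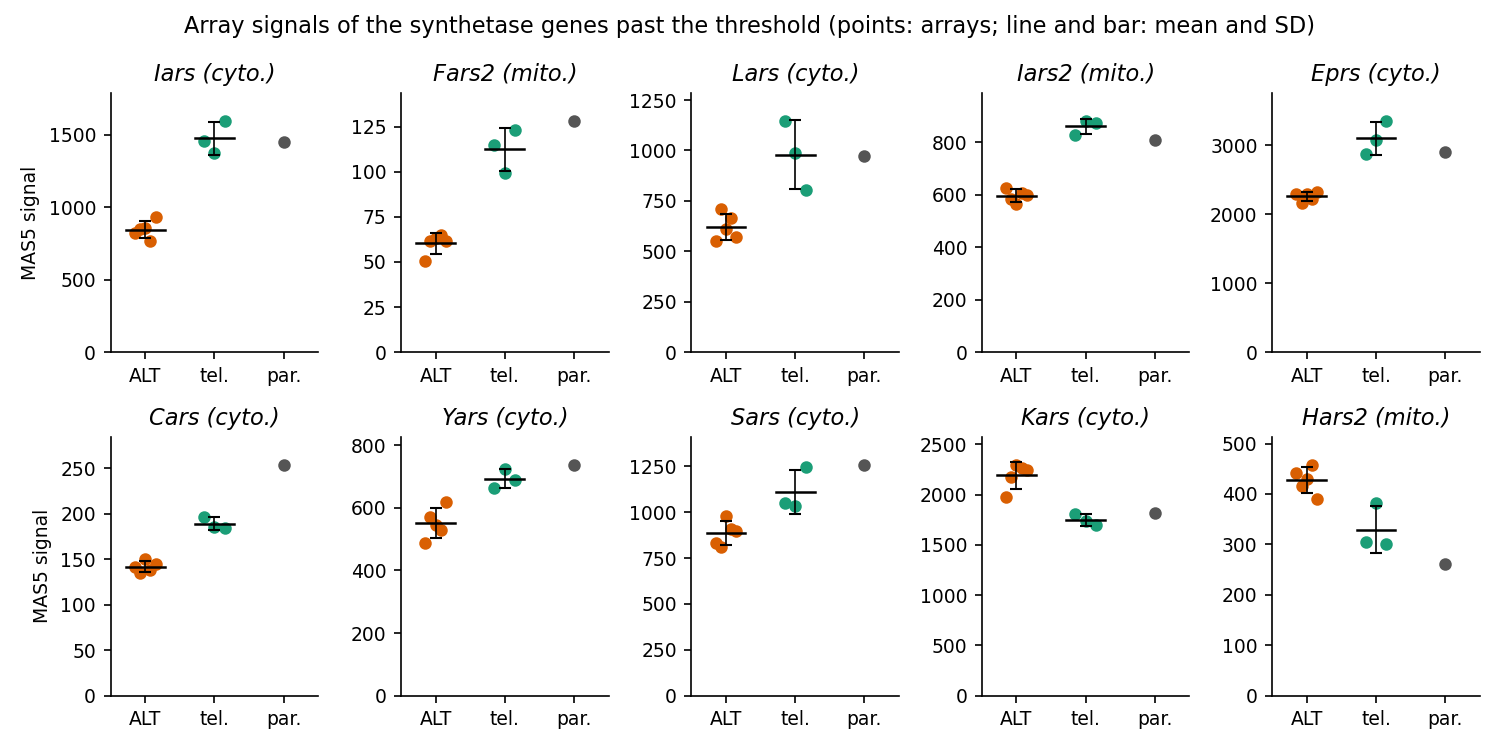
Array signal (linear axis from 0) of the 10 called synthetases in ALT tumours (5 points, left), telomerase tumours (3 points) and the parental tumour (1 point), with a line at each group mean and bars of 1 SD. For every one of the 10 genes the ALT and telomerase points do not overlap, with Iars at 770 to 931 in ALT tumours and 1373 to 1594 in telomerase tumours.

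Kars, the lysyl-tRNA synthetase of cytosol and mitochondria (chr8:111993439-112011354), was higher in ALT tumours. Its signal was 1973, 2173, 2298, 2266 and 2247 in ALT 1 to 5, against 1809, 1734 and 1700 in telomerase 1 to 3, and 1816 in the parental tumour. The means were 2191 ± 130 in ALT tumours and 1748 ± 55.5 in telomerase tumours (SD, n = 5 and 3), with a log2 change of 0.32 (SE 0.0712, limma adjusted p = 0.0129). The groups did not overlap, and the call held when each array was left out in turn. It was 0.36 in the low-acinar arrays, with a limma adjusted p of 0.0846.

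Of the 12 cytosolic genes that were not called, 7 lay below 0 and 5 above. Aars, the alanyl-tRNA synthetase, had signals of 778, 873, 954, 839 and 732 in ALT 1 to 5, against 649, 703 and 645 in telomerase 1 to 3. The groups did not overlap, and the log2 change of 0.32 had a limma adjusted p of 0.0544, or 0.0317 without ALT 5. Gars, the glycyl-tRNA synthetase, had signals of 1397, 1526, 1610, 1412 and 1637 in ALT 1 to 5, against 1921, 2304 and 1615 in telomerase 1 to 3. Telomerase 3 lay among the ALT arrays for Gars. Its log2 change was -0.35 (limma adjusted p = 0.0637), and without telomerase 3 it was -0.47 and called (limma adjusted p = 0.0212). Rars, the arginyl-tRNA synthetase, ran between 1042 and 1224 in ALT tumours and between 1281 and 1398 in telomerase tumours without overlap, at a log2 change of -0.20 (limma adjusted p = 0.123).

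The remaining cytosolic genes gave smaller or more variable differences. Nars, for asparagine, had signals of 2280, 2760, 2403, 2568 and 3248 in ALT 1 to 5, against 3016, 3726 and 2859 in telomerase 1 to 3. The groups overlapped through ALT 5. Nars averaged 2652 ± 379 in ALT tumours and 3200 ± 462 in telomerase tumours (SD, n = 5 and 3), a log2 change of -0.27 (limma adjusted p = 0.171), and its second probe set gave 0.07. Mars1 (methionine) stood at -0.22, Tars (threonine) at -0.19 and Wars (tryptophan) at -0.15. Wars is an interferon-induced gene, and its highest signal of all arrays, 801, was in ALT 5. Farsa and Farsb, the subunits of the cytosolic phenylalanyl enzyme, stood at -0.08 and 0.04. Qars (glutamine), Vars (valine) and Hars (histidine) stood at 0.04, 0.10 and 0.23. A further probe set of Farsb, not the one used for the gene, was called lower at -0.60.

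Counted by overlap alone, 7 cytosolic genes had every ALT array below every telomerase array and 2 had every ALT array above, 47.4% of the 19. Among mitochondrial genes 2 were below and 3 above, 31.2% of the 16. Over all tested genes 24.8% did not overlap, 13.9% with ALT below and 10.9% with ALT above. Of the 65 tested probe sets of synthetase genes, 14 were called lower and 2 higher, against 20.2% called over 22342 probe sets. The 14 include the dim Farsb probe set that passed the filter only through arrays outside the ALT group. Spread within the ALT group was modest for these genes, with a median SD on the log2 scale of 0.116 for cytosolic and 0.129 for mitochondrial synthetases, beside 0.193 for all tested genes.

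Fars2, the mitochondrial phenylalanyl-tRNA synthetase (chr13:36117428-36537595), fell most among mitochondrial genes. Its signal was 50.3, 61.8, 63.1, 65.1 and 61.6 in ALT 1 to 5, against 115, 99.5 and 123 in telomerase 1 to 3, and 128 in the parental tumour. ALT tumours were all below telomerase tumours, with ALT 1 the lowest. The means were 60.4 ± 5.82 in ALT tumours and 112 ± 12 in telomerase tumours (SD, n = 5 and 3), 53.7% of the telomerase signal. The log2 change was -0.75 (SE 0.123, limma adjusted p = 0.003), computed after adding 16 to each signal, which makes changes of dim genes such as Fars2 appear smaller. Its other probe set gave -0.50 and was not called (limma adjusted p = 0.103), and in the low-acinar arrays the change was -0.62 (limma adjusted p = 0.0914).

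Iars2, the mitochondrial isoleucyl-tRNA synthetase (chr1:185286642-185329419), had signals of 627, 586, 564, 608 and 600 in ALT 1 to 5, against 827, 881 and 875 in telomerase 1 to 3, and 811 in the parental tumour. The arrays of each group were close together and the groups far apart. The means were 597 ± 23.8 in ALT tumours and 861 ± 30.1 in telomerase tumours (SD, n = 5 and 3), with a log2 change of -0.52 (SE 0.0769, limma adjusted p = 0.00173). A second probe set was called lower at -0.46. In the low-acinar arrays the change was -0.53 (limma adjusted p = 0.06).

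Hars2, the mitochondrial histidyl-tRNA synthetase (chr18:36783202-36792562), was called higher on the probe set used. Its signal was 441, 415, 430, 458 and 390 in ALT 1 to 5, against 304, 383 and 300 in telomerase 1 to 3, and 261 in the parental tumour. The lowest ALT array was just above the highest telomerase array. The log2 change was 0.37 (SE 0.106, limma adjusted p = 0.0403), but a second probe set gave 0.03 (limma adjusted p = 0.908). The call was lost without any array but ALT 5 or telomerase 2, with limma adjusted p between 0.0659 without ALT 2 and 0.162 without telomerase 1. The span of Hars2 overlaps that of its cytosolic neighbour Hars (chr18:36766528-36783205), which had a log2 change of 0.23 (limma adjusted p = 0.169).

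The other 13 mitochondrial genes were not called, 6 below 0 and 7 above. Nars2 had signals of 299, 283, 169, 318 and 177 in ALT 1 to 5, against 166, 161 and 233 in telomerase 1 to 3. ALT 1, 2 and 4 were high and ALT 3 and 5 low, which gave Nars2 the largest ALT spread of all members (SD 0.41 on the log2 scale) and a log2 change of 0.36 (limma adjusted p = 0.314). Vars2 had 188, 260, 193, 219 and 140 in ALT 1 to 5, against 185, 118 and 136 in telomerase 1 to 3, with a log2 change of 0.41 (limma adjusted p = 0.18) and overlapping groups. Lars2 and Wars2 stood at 0.22 and 0.20 without overlap between groups. The remaining 9 genes ran between -0.21 (Yars2) and 0.19 (Mars2).

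Cytosolic and mitochondrial enzymes for the same amino acid could be set side by side in 17 pairings. Isoleucine was the only one in which both enzymes were called lower. In 6 pairings the cytosolic gene was called lower and the mitochondrial one was not called (cysteine, leucine, serine, tyrosine, glutamate and proline, with Eprs serving the last 2). Phenylalanine ran the other way, with mitochondrial Fars2 called lower beside Farsa and Farsb, neither of which was called. For histidine the mitochondrial gene was called higher and the cytosolic one not called, and in 7 pairings neither was called.

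The ratio of the cytosolic to the mitochondrial signal within each array was lower in every ALT array than in every telomerase array for leucine, cysteine, proline, glutamate and isoleucine. The log2 change of the cytosolic gene minus that of the mitochondrial gene was -0.86, -0.52, -0.41, -0.36 and -0.27 for these. For Farsa and Farsb over Fars2 the ratio was higher in every ALT array, and the log2 changes differed by 0.67 and 0.78. These differences between paired genes were not tested, and no share of non-overlapping ratios over other gene pairs is given.

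**Figure D3:**
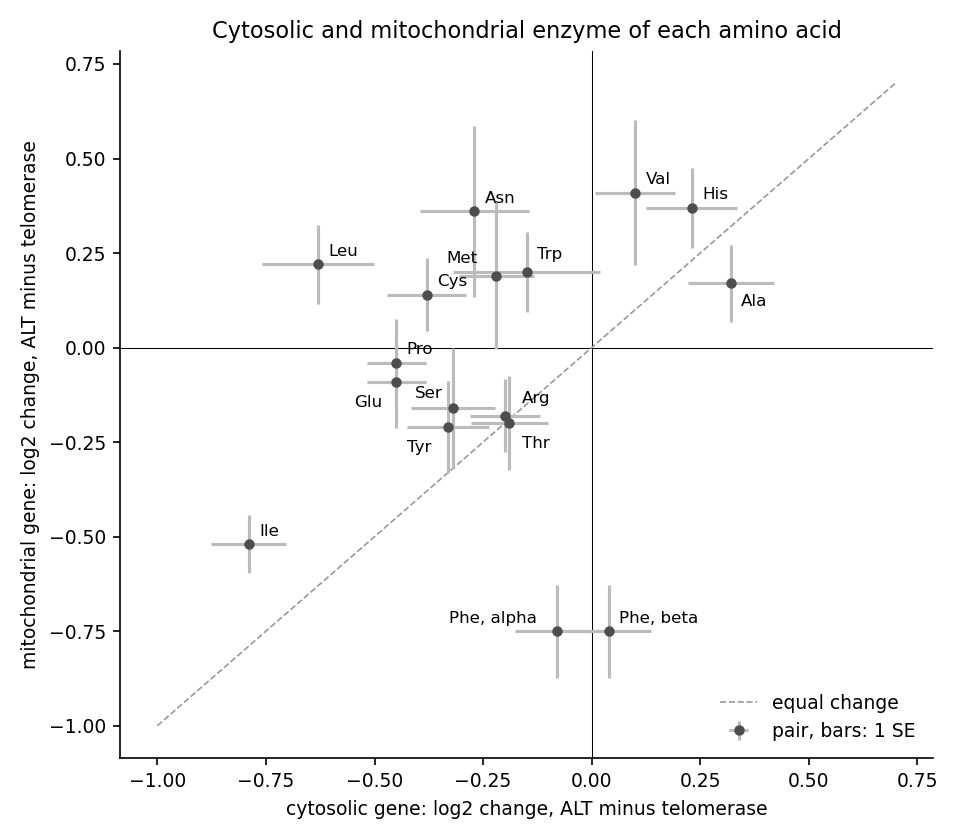
Log2 change (ALT minus telomerase) of the mitochondrial synthetase (vertical axis) against that of the cytosolic synthetase for the same amino acid (horizontal axis), for 17 pairings. Isoleucine lies lower left with both enzymes called lower, leucine far left with only the cytosolic one called, and the phenylalanine points lie near 0 on the horizontal axis and at -0.75 on the vertical one.

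Several called synthetases lay in stretches of chromosome where other genes differed in the same direction. On chromosome 13, 177 of 442 other tested genes were called lower in ALT tumours and 9 higher, with a median log2 change of -0.37. Among the 20 tested genes nearest to Iars, 9 were called lower and 0 higher (median -0.43), and among those nearest to Fars2, 12 were lower and 0 higher (median -0.46). Relative to the median of the chromosome, Iars stood at -0.42 and Fars2 at -0.38. Kars on chromosome 8 had 11 of its 20 nearest genes called higher and 0 lower (median 0.53), and Aars, on the same chromosome, 8 higher and 0 lower (median 0.38). The whole of chromosome 8 had a median of 0.11.

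The stretch around Lars showed little difference. Among its 20 nearest tested genes 1 was called higher and 2 lower (median 0.03), and chromosome 18 had a median of 0.19, with 64 genes called higher and 33 lower of 296. Hars2, on the same chromosome, had 4 of its 20 nearest genes called higher and 1 lower (median 0.15). Relative to the median of the chromosome, Hars2 stood at 0.18. The genes nearest to Eprs had a median of 0.02, with 1 higher and 5 lower, and those nearest to Cars a median of 0.20, with 3 higher and 0 lower. Iars2 and Eprs lie close together on chromosome 1 with 1 tested gene, Bpnt1, between them. Bpnt1 was also called lower (-0.44, limma adjusted p = 0.0328), while Rab3gap2 and 5033404E19Rik on the outer sides were not called (-0.11 and 0.22). The files hold no DNA copy number, and the part of chromosome gains or losses in these values was not tested.

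**Figure D4:**
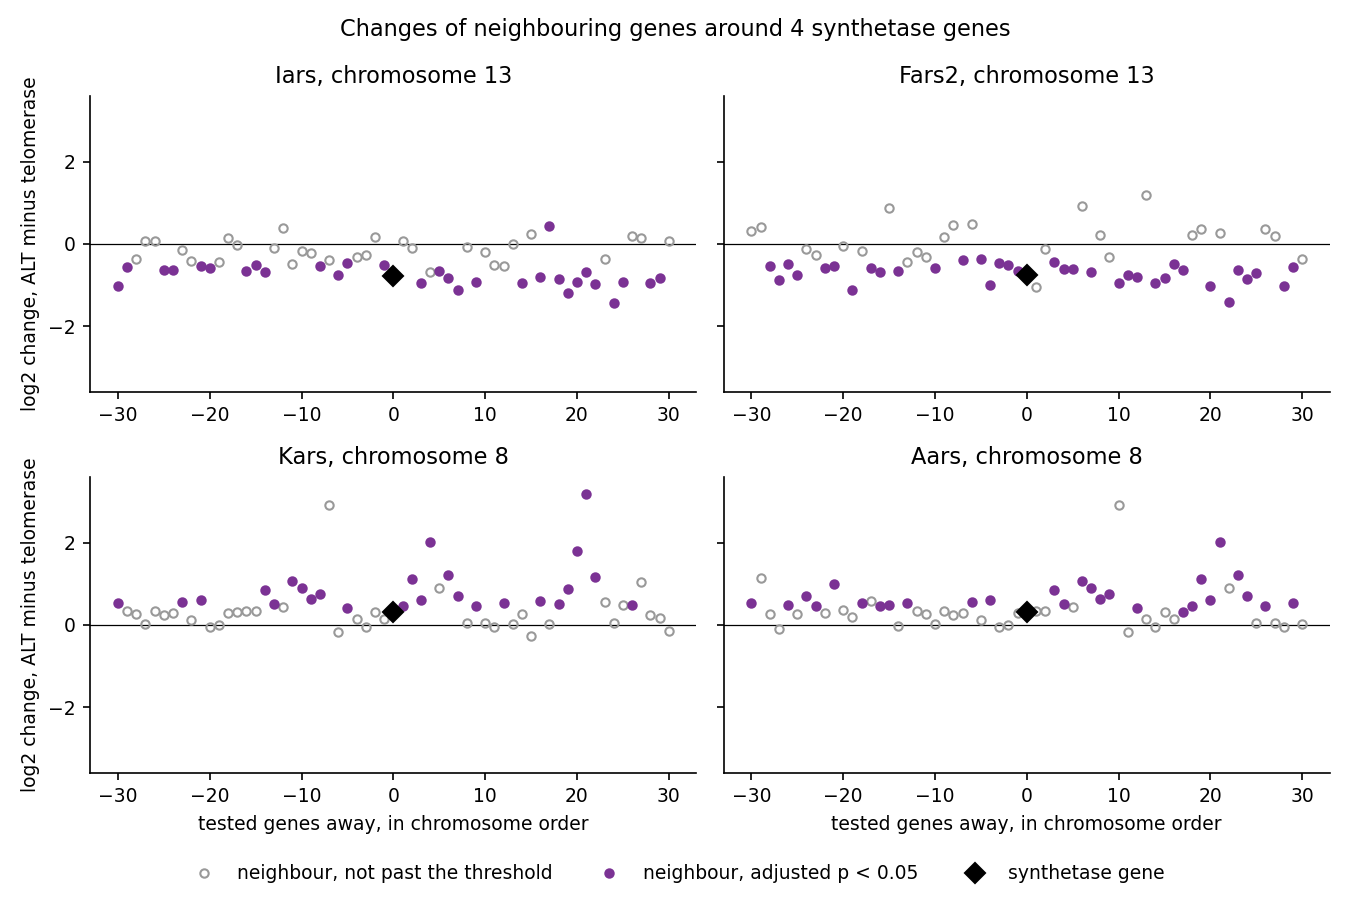
Log2 change (ALT minus telomerase, vertical axis) of tested genes up to 30 places to either side of Iars, Fars2, Kars and Aars in chromosome order (horizontal axis), with called neighbours filled and the synthetase as a diamond. Most filled points lie below 0 around Iars and Fars2, and all filled points lie above 0 around Kars and Aars.

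The cytosolic genes were also divided by known regulation and by partners. The 13 genes listed as Atf4 targets held all 6 of the cytosolic genes called lower and 0 called higher, with a median log2 change of -0.32, and the 6 genes not listed held only the higher call of Kars, with a median of 0.04. Averaged over the 13 genes, ALT arrays lay -0.37, -0.28, -0.24, -0.34 and -0.18 from the telomerase mean, and telomerase arrays 0.02, 0.03 and -0.05. The division was made with earlier results of these data known and is a description. Of the 7 measured enzymes of the multisynthetase complex 1 was called higher and 3 lower (median -0.22), and of the 12 enzymes outside it 0 were higher and 3 lower (median -0.17). By structural class, 5 of the 10 class I entries were lower and 0 higher, and of the 9 class II entries 1 was lower and 1 higher. The bifunctional Eprs was counted with class I only.

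The synthetases with the core in their promoter window were not all called. Of the 5 genes with the TGATGNAA core printed above, Iars and Yars were called lower, Gars and Tars stood at -0.35 and -0.19 without a call, and Aars stood at 0.32 with ALT above telomerase on every array. All 5 belong to the 8 listed Atf4 targets with a window, and none to the 4 cytosolic genes with a window that are not listed. Over the tested genes with a window, the core was in 38 of 1016 genes called lower (3.74%), 16 of 716 called higher (2.23%) and 227 of 8225 not called (2.76%). A match is only a match of letters, and where there is none these letters are not in this window.

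Genes that work beside the synthetases gave the following. Of the 3 scaffold proteins of the multisynthetase complex, Eef1e1, a small scaffold subunit also known as p18, was called lower. Its signal was 1140, 1248, 1534, 1329 and 1463 in ALT 1 to 5, against 2379, 2333 and 2151 in telomerase 1 to 3, and the groups did not overlap. The log2 change was -0.77 (SE 0.102, limma adjusted p = 0.00095), and the gene lies on chromosome 13 like Iars and Fars2. Aimp1 and Aimp2 were not called, at -0.22 and 0.21. Of 7 synthetase-like and tRNA-editing genes 1 was called, Dtd2, which removes D-amino acids from tRNA, at 0.44. Of 5 cytosolic elongation genes 2 were lower, Eef1a1 (-0.13), which brings charged tRNA to the ribosome, and Eif5a (-0.23).

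The mitochondrial translation apparatus showed few calls. Among 76 mitochondrial ribosomal protein genes 3 were higher and 6 lower, 11.8% called against 17.5% of all tested genes, with a median log2 change of -0.01. None of 9 mitochondrial translation factors and none of 4 genes of the amidotransferase and formylation steps was called by limma. Lists of 9 and 4 genes are too short for the absence of calls to be told apart from the 17.5% over all tested genes.

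Some genes of the amino acid shortage response were much lower in ALT tumours, but the lists differed. The share called lower was 55.6% for amino acid synthesis genes, against 10.1% of all tested genes. It was 14.3% for stress kinases and factors and 14.3% for other Atf4 targets, with 2 of 10 transporters. Of 9 tested genes of amino acid synthesis 5 were lower and 0 higher: Aldh18a1 (-4.69), Asns (-2.24), Gpt2 (-1.05), Psat1 (-0.52) and Phgdh (-0.48), with a list median of -0.48. Asns, asparagine synthetase, had signals of 619, 509, 578, 600 and 954 in ALT 1 to 5, against 2890, 3810 and 2640 in telomerase 1 to 3. Aldh18a1, an enzyme of proline synthesis, was near the dim end of the array in ALT tumours, with 38.1, 28.5, 21.8, 10.6 and 81.6 in ALT 1 to 5, against 1183, 1310 and 1126 in telomerase 1 to 3. Of 10 tested amino acid transporters 2 were called lower, Slc7a3 for basic and Slc1a4 for neutral amino acids. Slc7a3 averaged 18.6 ± 3.86 in ALT tumours and 134 ± 109 in telomerase tumours, and Slc1a4 23.6 ± 4.46 in ALT tumours and 53.7 ± 18.1 in telomerase tumours (SD, n = 5 and 3). Both ALT means were below the filter signal of 25.3, so both genes passed it only through the other arrays and no size is given for their changes. Atf4 itself was not called, with signals of 1873, 1962, 2133, 1755 and 1937 in ALT 1 to 5, against 1985, 2254 and 2204 in telomerase 1 to 3 (log2 change -0.15, limma adjusted p = 0.229). Of its list of 14 stress kinases and factors, Atf5 (-1.50) and Trib3 (-1.70), an inhibitor of Atf4, were lower. In that list 8 genes lay below 0 and 6 above, among them Eif2ak3 (0.62) and Nupr1 (2.27) without a call, and the median was -0.09. The Nupr1 signal was high only in the arrays of high acinar signal, at 3518, 5267 and 9245 in ALT 1, 2 and 5 and 1517 in telomerase 3. In the other arrays it ran between 59 and 116. The part of pancreatic tissue in the Nupr1 change was not tested. Of 7 other Atf4 targets, Chac1 (-1.15), which degrades glutathione, was lower and Stc2 (0.60), a secreted glycoprotein, higher. Of these 7 genes 5 lay below 0 and 2 above, Stc2 and the uncalled Ddit4 (0.65).

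**Figure D5:**
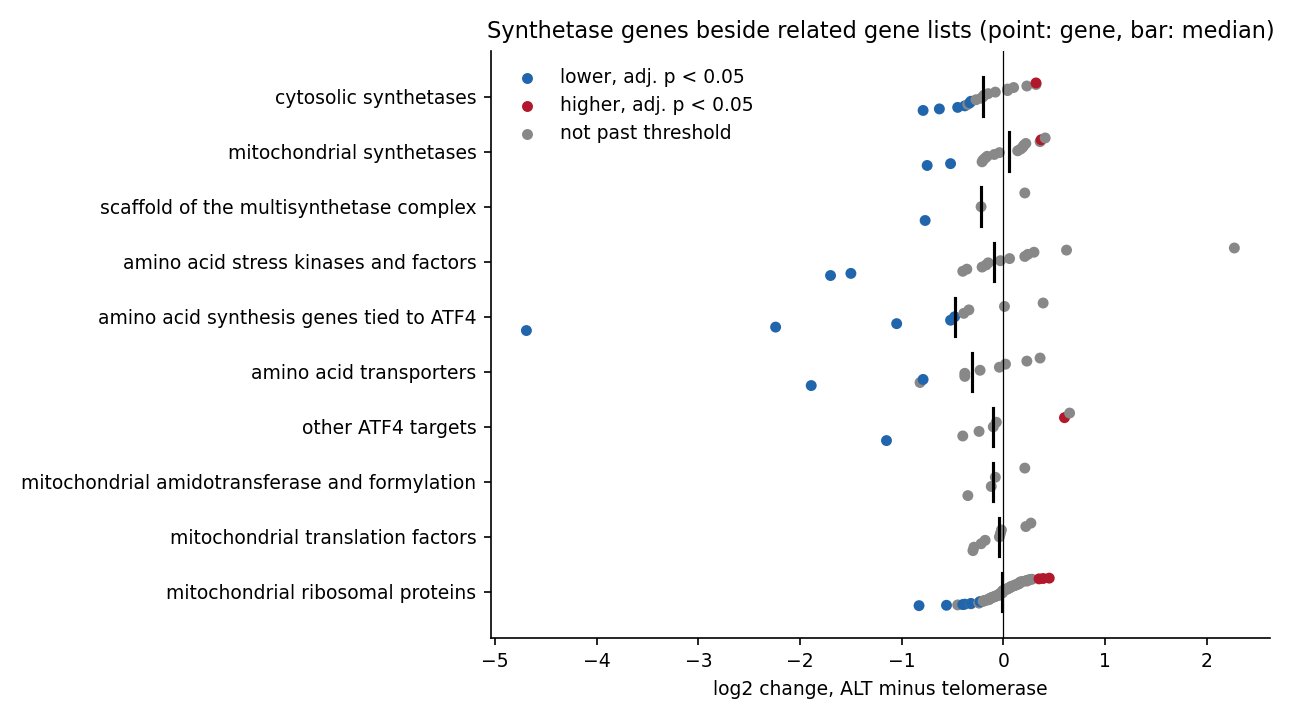
Log2 change (ALT minus telomerase) of each tested gene (points) in the synthetase classes and in lists of related genes, with the median of each list (bar). Blue points were called lower and red points higher. The medians are -0.20 for cytosolic and 0.05 for mitochondrial synthetases and -0.48 for genes of amino acid synthesis.

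The parental tumour lay nearer to the telomerase mean than to the ALT mean for 27 of the 35 synthetases, including all 10 that were called. For the remaining 8 (Nars, Yars2, Sars2, Wars, Farsa, Farsb, Qars and Lars2), none of them called, it lay nearer to the ALT mean. Its Cars signal of 254 was above that of every ALT and telomerase array. With 1 parental array there is no spread and no test. The parental tumour is itself labelled telomerase, and the share of all tested genes nearer to the telomerase mean is not given. The 27 of 35 therefore cannot be read as a trait of synthetases. Its summed muscle signal of 14959 was high, as was that of telomerase 1 (9995), and the part of muscle in these values was not tested.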

How the data were processed

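Gene expression of 9 tumours was measured on single-colour arrays. The deposited values are probe set signals, an array intensity on a linear scale. Per the submitters' processing notes the authors used MAS5, and its version and settings are not stated in those notes. Array medians ran between 39.8 and 43.8, and no further scaling was applied before the log2 step, although upper quartiles differed between the groups. A probe set was named through the platform annotation: of 45101, apart from control probe sets, 34945 had 1 gene, 932 several and 9211 none. Each gene took the probe set with the highest mean signal, genes with a mean signal in the lowest 40% of probe sets (under 25.3) were left out, and log2(signal + 16) was fitted with limma 3.58.1 (R 4.3.3, eBayes with an intensity trend), 5 ALT against 3 telomerase arrays, with no covariate and a threshold of 0.05 after Benjamini-Hochberg adjustment. The limma step was tested on simulated data. Tables and plots used Python 3.11.15, numpy 2.4.6, pandas 2.3.3 and matplotlib 3.10.9. Gene positions and promoter windows are RefSeq's for GRCm38.p6. Array data give no counts, and the number of arrays limits the precision. Signals of different probe sets are not on a common scale, so their levels were not compared. Ratios of cytosolic to mitochondrial signal were set against each other only between arrays. Some items are not reported here.

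The members and all gene lists were chosen with earlier results of these data known, and the Atf4 target list was set from general knowledge in the same way. Named in full by rule were the called members and the member with the highest mean signal in each class (a way of choosing, not a comparison of levels), and from each related list the called genes, Atf4, Asns and the scaffold genes. Aars, Gars, Nars2, Vars2 and Rars and the neighbours of Iars2 and Eprs were described after their values were seen. Tumours of both groups share replicate numbers, and the labels do not say whether these pair the samples. The deviations of same-numbered samples from their group means correlated at -0.302, -0.402 and -0.572. Each of these pairs joins an array of high acinar signal with one of low. ALT 1, 2 and 5 against telomerase 3, all of high acinar signal, gave 0.387, 0.452 and 0.414. The signs thus followed the acinar signal, so the correlations cannot show whether the numbers pair the samples. No block was used in the main fit. The alternatives were other pseudocounts, filters, normalisations and probe set rules, no intensity trend, the replicate block, the parental array added, the acinar signal as a covariate, the 4 low-acinar arrays alone, and each array left out in turn.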

Additional observations from a re-analysis of the deposited data

Results flagged for a closer look

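In 2 of 35 ALT groups of 5 arrays, 1 array stood apart from the other 4 by more than 0.71 of the group's whole range, Dixon's 95% limit. Chance gives about 1 such group in 20. ALT 1 was below the other ALT arrays for Fars2, with a gap of 0.783 of the range. ALT 1 was above the other ALT arrays for Qars, with a gap of 0.719.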

How the results depend on the processing

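Besides the main setting, 20 others were tried, 12 of them other than leaving out an array. All 10 called synthetases kept their direction in every setting. The call was kept without each array in turn for 6 of them (Eprs, Fars2, Iars, Iars2, Kars and Lars), and in every setting for Iars only. With the replicate number as a block, which lowers the residual degrees of freedom, 991 genes were called in place of 2169, with 2 cytosolic synthetases lower and 0 higher, and 1 mitochondrial synthetase lower and 0 higher. In the 4 low-acinar arrays 833 genes were called, with 2 cytosolic synthetases lower, 0 higher, and 0 mitochondrial ones lower or higher. The count of cytosolic synthetases called lower, 6 in the main setting, was 4 with no filter, quantile normalisation, no intensity trend or the acinar covariate, and 8 with the parental array added. The count called higher was 2 with the 60% filter, with the parental array added and with the acinar covariate, and the count of mitochondrial ones called higher was 0 with no filter, with median centring and with the mean of probe sets. Leaving out 1 array at a time gave 1163 to 2096 called genes (the lowest without telomerase 1), 3 to 5 cytosolic synthetases lower, 1 to 2 higher, and 0 to 1 mitochondrial higher. The mitochondrial median changed sign to -0.0043 with the mean of probe sets and to -0.0024 without telomerase 1 (-0.0024 to 0.058 leaving out 1 array at a time). Of 25 uncalled synthetases, 4 changed sign: Farsa to 0.01 in the low-acinar arrays, Farsb to -0.16 with the mean of probe sets and -0.01 without telomerase 1 (range -0.01 to 0.08 over left-out arrays), Qars to -0.03 with the mean of probe sets and without ALT 1 (range -0.03 to 0.07), and Pars2 to 0.02 with quantile normalisation and 0.04 in the low-acinar arrays. The 60% filter removed Ears2, Mars2 and Sars2, none of them called. Apart from settings that use fewer arrays, the cause was not tested. Precision differed between genes, with an SE of 0.123 for Fars2, 0.194 for Mars2 and 0.227 for Nars2 in the main setting.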
